A study of Mus musculus with 4 samples.

Results

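The regions described here are stretches of mouse chromatin that carried acetylated lysine 27 of histone H3 (H3K27ac) in the library labelled BN1, that had no base called in the library labelled control, and that lay between genes. They were chosen by merging the peaks of the list labelled BN1 with those of the list labelled control on the placed chromosomes and keeping merged regions made of BN1 peaks alone that overlapped no RefSeq protein-coding gene extended by 1000 bp at both ends. There were 2833 such BN1-only regions between genes among 34906 merged regions, which is 8.12%. Control-only regions between genes, found by the same rule with the lists exchanged, numbered 5400, or 15.5%. That order changed with the number of peaks kept. With both lists at the 19140 peaks of highest −log10 q, there were 3108 BN1-only and 3006 control-only regions between genes. With both lists cut to a smaller equal number of peaks, there were 977 BN1-only and 1181 control-only regions, so the order returned. Whether list length sets the order was not tested. The call in 1 list and not in the other is what chose these regions, so their number and their absence from the other list are a description and were not tested.

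H3K27ac was mapped by fanChIP, a chromatin immunoprecipitation without crosslinking, in sorted bone marrow cells of C57BL/6 mice. The BN1 group is labelled as CD45.2+ bone marrow cells of genotype cKit(+) BRD9-NUTM1, and the control group as CD45.2+ bone marrow cells of genotype cKit(+). Each group had 1 ChIP library, without age, sex or number of animals in the labels, and neither the inputs nor the other leukaemias named in the study's design were analysed here. How the fusion was brought into the cells is not in the labels. With 1 library per group no difference has a replicate check and no p-value is given.

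The labels and the files disagree on which library is which. Peaks in the list that belongs to the BN1 sample are named BM, and those in the list that belongs to the control sample are named BRNU, abbreviations that the labels do not explain. The protocol text names BN1 cells for all 4 samples, controls included. Groups follow the sample titles, as "the list labelled BN1" and "the list labelled control", and each direction holds for these labels only. Neither list had a peak within 50 kb of Kit, the stem cell factor receptor that the sort is labelled with. Ptprc, which encodes CD45, had 5 peaks covering 2958 bp within 1000 bp of the gene in the list labelled BN1 and 9 peaks covering 6634 bp in the list labelled control. Cd34, a progenitor surface marker, had no peak within 10 kb in the list labelled BN1 and 2 peaks covering 1601 bp in the list labelled control. The list labelled BN1 held 19140 peaks over 19.1 Mb, and the list labelled control 28315 peaks over 31.0 Mb, on the placed chromosomes.

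H3K27ac is laid down by the acetyltransferases p300 and CBP and is found at active promoters and at active enhancers. Acetylated stretches that lie between genes are often enhancers, which act on genes at a distance, so the nearest gene is not always the gene they act on. BRD9-NUTM1 joins BRD9, a bromodomain protein of a BAF chromatin remodelling complex, to NUTM1, a testis protein that binds p300. The fusion occurs in infant leukaemia.

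Some of these regions lay beside genes of microRNAs that are studied in blood cells. The mature sequences shown were picked with that in mind and are not all of those found. Of 1228 miRNA genes on the placed chromosomes, 17 lay within 5 kb of a BN1-only region between genes, and 15 regions were involved. No such count was made for control-only regions, so a link to blood microRNAs was not tested. Mature sequences from RefSeq (GRCm38.p6) matched 15 of these 17 genes. The 24 sequences had 23 different seeds, and the shared seed was that of miR-181c and miR-181d. Capitals mark the seed, bases 2 to 8.
mmu-miR-223-3p: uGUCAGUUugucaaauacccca
mmu-miR-223-5p: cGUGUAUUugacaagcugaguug
mmu-miR-144-3p: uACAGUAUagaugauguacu
mmu-miR-144-5p: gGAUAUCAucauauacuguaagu
mmu-miR-451a: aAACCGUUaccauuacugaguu
mmu-miR-181c-5p: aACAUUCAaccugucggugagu
mmu-miR-181d-5p: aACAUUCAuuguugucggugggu
mmu-miR-192-5p: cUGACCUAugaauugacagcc
mmu-miR-194-5p: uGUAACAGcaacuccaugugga

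Mir223 on chromosome X encodes miR-223, a microRNA abundant in myeloid cells that restrains granulocyte production in mice. A BN1-only region of 502 bp, with a fold enrichment of 5.54 at its summit, covered the whole Mir223 gene. Another of 732 bp, with a fold of 6.65, ended 1050 bp from it. Within 5 kb of Mir223 the list labelled BN1 had 3 peaks and the list labelled control had 1. Mir144 and Mir451a form a cluster on chromosome 11 that is transcribed in red cell precursors. A region of 242 bp with a fold of 5.27 lay 642 bp from Mir144 and 807 bp from Mir451a, and the list labelled control had no peak within 5 kb. Mir181c and Mir181d on chromosome 8, of a family known in lymphocyte development, had a region of 473 bp with a fold of 4.57 at 4734 bp and 4908 bp. Mir192 and Mir194-2 on chromosome 19 had a pair of regions within 5 kb, with folds of 12.0 and 4.94, and no control peak. The miRNA gene beside the strongest of the 15 regions was Mir684-2, 4965 bp from a region with a fold of 15.3. The other miRNA genes within 5 kb were Mir451b, Mir7084, Mir1982, Mir6913, Mir7688, Mir5135, Mir713, Mir6953 and Mir692-1.

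Promoter windows of noncoding RNA genes were the other place where a reference sequence lay under these regions. A window runs from 250 bases before to 50 bases after a gene's start, and 100 windows of 95 long noncoding RNA (lncRNA) genes were overlapped. The windows shown lie within regions that rank among the 10 with the highest fold enrichment, and RefSeq (GRCm38.p6) gives the sequence on the strand of the gene. Capitals mark letters that match motifs of blood cell transcription factors on either strand: AGGAAG for the ETS family, TTGCNNAA for C/EBP, TGTGGT for RUNX, TGANTCA for AP-1 and AGATAA for GATA. These motifs share no overlap in the windows shown.
Mirt1 (chr19:53464747-53465046, - strand): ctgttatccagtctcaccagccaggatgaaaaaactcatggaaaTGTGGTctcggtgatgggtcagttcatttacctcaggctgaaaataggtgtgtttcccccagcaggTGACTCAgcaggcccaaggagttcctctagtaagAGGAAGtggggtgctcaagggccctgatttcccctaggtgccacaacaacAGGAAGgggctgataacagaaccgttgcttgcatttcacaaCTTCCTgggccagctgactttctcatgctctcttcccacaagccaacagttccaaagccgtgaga
Gm15323 (chr13:112000759-112001058, + strand): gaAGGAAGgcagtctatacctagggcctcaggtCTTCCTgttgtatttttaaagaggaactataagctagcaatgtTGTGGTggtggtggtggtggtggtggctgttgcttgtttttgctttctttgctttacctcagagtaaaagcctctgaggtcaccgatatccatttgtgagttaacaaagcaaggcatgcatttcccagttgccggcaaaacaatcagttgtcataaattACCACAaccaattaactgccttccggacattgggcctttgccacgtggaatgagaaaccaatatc
Gm51802 (chr10:60162342-60162641, - strand): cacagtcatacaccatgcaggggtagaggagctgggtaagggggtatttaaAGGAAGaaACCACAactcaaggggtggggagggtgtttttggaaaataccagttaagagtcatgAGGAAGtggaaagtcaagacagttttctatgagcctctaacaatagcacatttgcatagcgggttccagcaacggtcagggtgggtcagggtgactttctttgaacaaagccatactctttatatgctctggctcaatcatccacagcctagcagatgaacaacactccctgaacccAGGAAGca

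Mirt1 held 5 matches, of which 3 were to the ETS letters, and Gm15323 and Gm51802 held 4 matches each. Across the 100 windows, the ETS letters were present in 53%, compared with 50.6% of the 176 lncRNA windows overlapped by a control-only region between genes, 37.1% of all 11588 lncRNA windows and 35.4% of all 32851 windows. The share with ETS letters was thus close in the regions of either list and lower over all windows. The GATA letters were in 14% of windows under BN1-only regions and 16.5% under control-only regions. C/EBP letters were in 14% and 12.5%, and RUNX letters in 20% and 19.3%, of windows under BN1-only and control-only regions. AP-1 letters were in 9% of the windows under BN1-only regions and in 17.6% of those under control-only regions, beside 9.31% of all lncRNA windows. A window counted with an overlap of any length, such as 6 bp at 4930520O04Rik, so a match can lie outside the region. A match is a run of letters and not evidence of binding. Mean GC content was 50.2% in the windows under BN1-only regions and 50.7% in those under control-only regions.

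Most BN1-only regions between genes were short and weakly enriched, and a small number were long and strong. Each of the 2833 regions was a single peak of the list labelled BN1. Together they covered 1.86 Mb, which is 9.73% of the length and 14.8% of the peaks of that list. Their median width was 449 bp (95% interval 434 to 466, exact binomial), with quartiles of 303 and 768 bp and extremes of 215 and 6259 bp. Only 105 of them (3.71%) reached 2 kb. The fold enrichment at the summit is the authors' own value for each peak within its list. It had a median of 4.99 (95% interval 4.84 to 5.07), quartiles of 3.99 and 6.65, and extremes of 1.38 and 51.2. A fold of at least 10 was given for 226 regions (7.98%), and a −log10 q of at least 10 for 862 (30.4%). These intervals cover counting error only.

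The other regions place these values. BN1-only regions inside genes numbered 3290 with a median width of 441 bp and a median fold of 4.73, and those at gene ends numbered 1036 with a median width of 522 bp and a median fold of 5.11. Regions between genes thus made up 39.6% of the 7159 BN1-only regions. The 1483 regions between genes that both lists held had a median width of 1354 bp, about 3 times that of the BN1-only ones, and a median fold of 6.73 in the list labelled BN1. Control-only regions between genes had a median width of 503 bp (95% interval 488 to 519). Fold enrichment belongs to its own list and is not compared between lists.

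At the edges of the rule, the regions nearest to a gene that still counted lay 1002 bp from Kcnip2, 1003 bp from G0s2 and 1003 bp from Pnpla1. Those just too close lay 998 bp from Znhit1, 995 bp from Hes1 and 993 bp from Hacd4. The smallest gaps to a control peak were 19 bp near Laptm5 and 26 bp near Chd7, and the smallest overlaps that made a merged region count as shared were 44, 45 and 50 bp. A gap of under 1 kb to a control peak was found for 235 regions (8.30%).

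**Figure D1:**
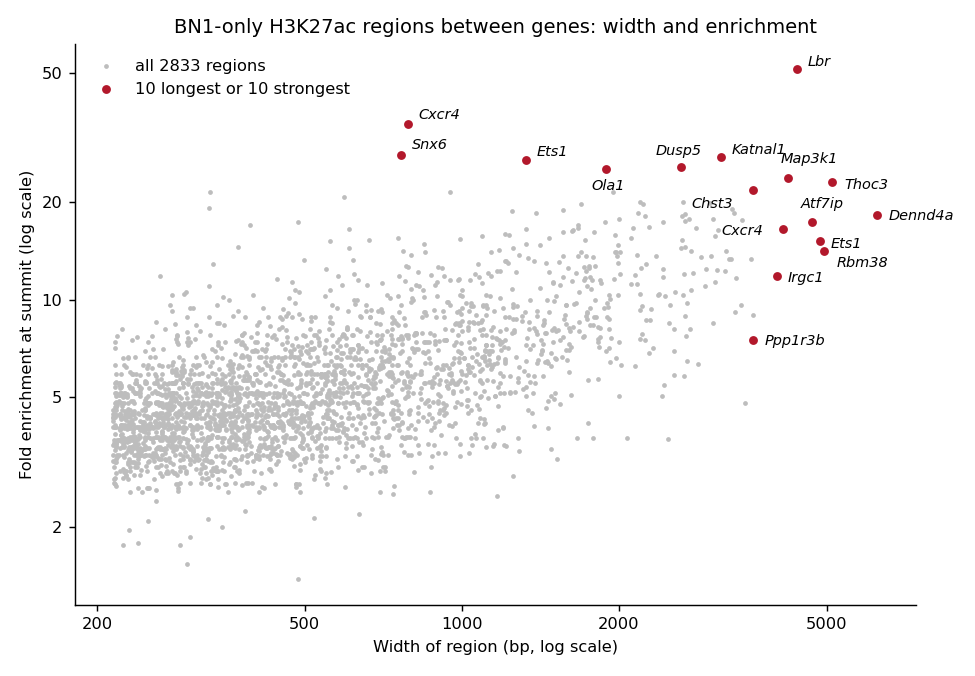
Width in bp (x axis, log scale) against fold enrichment at the summit (y axis, log scale) for all 2833 BN1-only regions between genes; each point is 1 region, and red points are the 10 longest and the 10 strongest, labelled with the nearest named gene. Most points lie near the medians of 449 bp and 4.99, and the region near Lbr stands at 4387 bp and 51.2.

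The strongest region by fold enrichment was also among the longest. It spanned 4387 bp on chromosome 1 with a fold of 51.2 and lay 16838 bp upstream of Lbr, which encodes the lamin B receptor, an inner nuclear membrane protein needed for the lobed nucleus of granulocytes. The longest region spanned 6259 bp on chromosome 9 with a fold of 18.3 and lay 7801 bp from Dennd4a, a guanine nucleotide exchange factor for Rab proteins. It was followed by a region of 5120 bp near Thoc3, a subunit of the THO complex of mRNA export, 1 of 4953 bp near Rbm38, and 1 of 4855 bp near Ets1. Ets1 is an ETS family transcription factor of lymphocytes, and a separate region of 1325 bp 18846 bp from it had a fold of 26.98. A region of 788 bp with a fold of 34.8 lay 17592 bp from Cxcr4. Regions of 4686 bp near Atf7ip, 4023 bp near Irgc1 and 3621 bp at 166538 bp from Ppp1r3b completed the longest set with those at Lbr, Map3k1 and Cxcr4. Of the 10 longest and the 10 strongest, 3 regions were in both sets, near Lbr, Thoc3 and Map3k1.

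Others in the strongest set had folds of 27.4 near Katnal1, 25.6 at the start of the noncoding gene Mirt1, 25.3 near Ola1, 23.7 at 181709 bp from Map3k1 and 21.8 near Chst3. A narrow region of 765 bp near Snx6 with a fold of 27.9 overlapped a small nuclear RNA gene, Gm22317. The same stretch of chromosome 12 held narrow regions of 329 bp and 328 bp with folds of 21.4 and 19.2, each on a small nuclear RNA gene. Small nuclear RNA genes occur in many near-identical copies, so these values are uncertain.

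BN1-only regions between genes lay at a median of 17875 bp (95% interval 16807 to 19104) from the nearest protein-coding gene. The quartiles were 6894 and 50562 bp and the farthest region was 1210253 bp away. Of the 2833 regions, 527 (18.6%) lay within 5 kb, 1144 (40.4%) between 10 and 50 kb, and 353 (12.5%) beyond 100 kb. The share beyond 50 kb was 25.3% (95% interval 23.75 to 26.99), against 26.7% (25.5 to 27.9) of the control-only regions between genes and 20.9% (18.9 to 23.1) of those in both lists. The intervals of the BN1-only and control-only shares overlap. Control-only regions had a median distance of 19965 bp (18905 to 20905), and regions of both lists 15311 bp (14123 to 16564). The median fold was 5.23 beyond 50 kb and 4.84 nearer, a difference that was not tested. Where the strand of the nearest gene is known, 1271 of 2226 BN1-only regions lay upstream of it, or 57.1% (95% interval 55.0 to 59.2), against 2516 of 4162 control-only regions, or 60.5% (58.9 to 61.9).

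**Figure D2:**
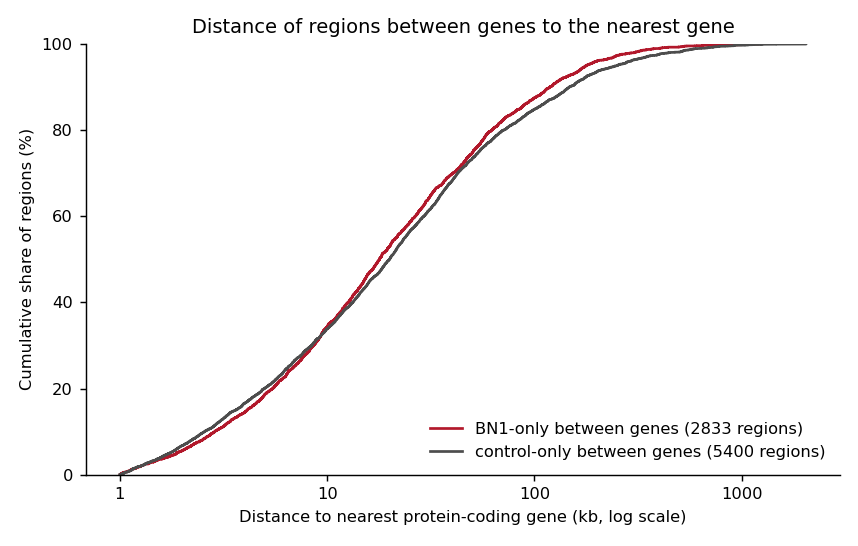
Cumulative share of regions in percent (y axis) by distance to the nearest protein-coding gene in kb (x axis, log scale), with 1 line for the 2833 BN1-only and 1 for the 5400 control-only regions between genes. The lines run close together, with medians of 17875 and 19965 bp.

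Many of these regions lay beside other BN1 peaks. The gap to the nearest other peak of the list labelled BN1 had a median of 1431 bp (95% interval 1176 to 1728), and 1300 regions (45.9%) had such a peak within 1 kb. The gap to the nearest peak of the list labelled control had a median of 18014 bp (16911 to 19514), and for 770 regions (27.2%) it was over 50 kb. The regions were chosen for holding no control base, so this gap follows in part from the rule. The same holds for the groups without a control peak below. No such gap was measured from control-only regions. Regions within 12.5 kb of each other were joined into groups, which gave 1734 groups, of which 1133 held 1 region and 357 held 2. The 244 groups with at least 3 regions held 986 of the regions, or 34.8%, and 208 of these groups enclosed no control peak. Control-only regions formed 486 such groups with 35.9% of their number.

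The largest groups held 10 regions each. Groups are named by the nearest genes of their regions, at any distance. The group near Cecr2, which encodes a bromodomain protein, and Hdhd5 covered 10572 bp over a span of 70451 bp and enclosed 1 control peak. The other, with Thbs1 as its nearest gene, covered 6821 bp over 32308 bp and enclosed none. It lay at chr2:117961920-117994227, outside the 50 kb window of Thbs1, which encodes thrombospondin and starts at 118111876. That window held 1 BN1-only region between genes, of 296 bp. Groups of 9 lay between Slfn1 and Slfn4, of the Schlafen family of lymphoid and myeloid regulators, and around S100a8 and S100a9. The group of 9 around S100a8 and S100a9 enclosed 1 control peak. Next to Rbm38, which encodes an RNA-binding protein, 8 regions covered 10882 bp over 37992 bp and enclosed no control peak. Groups of 8 without a control peak also lay near Irf2bp2, with 6547 bp over 21313 bp, near Usp12, with 5278 bp over 14390 bp, and near Chsy1 and Lrrk1, with 5048 bp over 34237 bp. By chromosome, the regions made up between 11.1% of the peaks of the list labelled BN1 on chromosome 7 and 22.5% on chromosome 13, leaving out chromosome Y, which had 7 peaks.

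A BN1-only region between genes was found within 50 kb of either end of 2755 of 21883 protein-coding genes, which is 12.6%. The same count for control-only regions was 4657 genes, or 21.3%. Of the 2755 genes, 1674 (60.8%) had 1 region, 157 (5.70%) had at least 5, and 260 (9.44%) had no control peak of any kind in the window. The median gene with a region had 687 bp of them, and 63 genes had 5 kb or more. Neighbouring genes share regions, so genes are not independent counts.

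Regions between genes were more frequent where the gene's own end was acetylated in the list labelled BN1 alone. Of 705 genes with a BN1 peak but no control peak within 1000 bp of an end, 243 (34.5%) had a BN1-only region between genes in the window and 145 (20.6%) had a control-only one. Of 1449 genes whose ends had only a control peak, 141 (9.73%) had a BN1-only region and 509 (35.1%) a control-only one. Genes with both lists at their ends numbered 8393, and 1498 of them (17.8%) had a BN1-only region, while 2508 (29.9%) had a control-only one. Among all 9098 genes with a BN1 peak at an end the BN1-only share was 19.1%, and among all 9842 genes with a control peak at an end the control-only share was 30.7%. Seen from the regions, 1550 of 2833 (54.7%) had a nearest gene acetylated at its ends in both lists. For 427 (15.1%) it was the list labelled BN1 alone, for 114 (4.02%) that labelled control alone and for 742 (26.2%) neither. Ends are the outermost annotated bases of a gene, so a gene with neither can still hold peaks inside. Erg had no end peak in either list, and its window held 16 BN1 peaks.

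**Figure D3:**
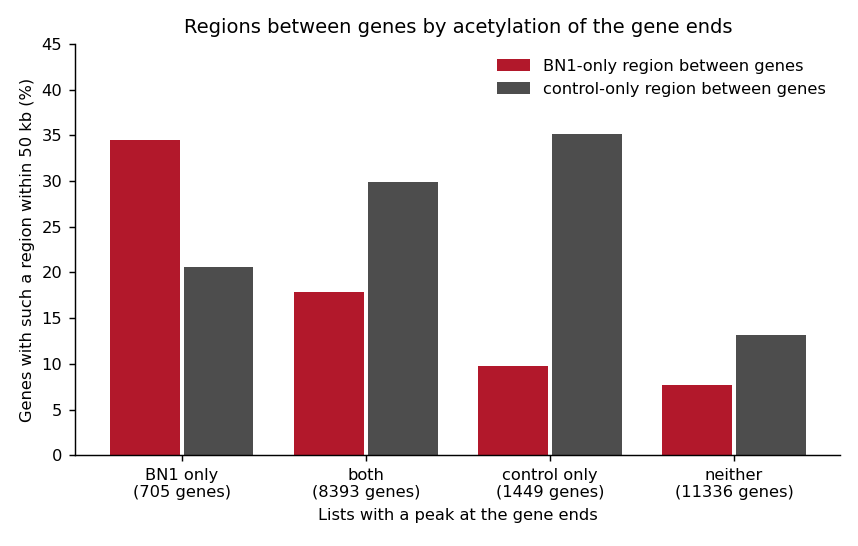
Percent of protein-coding genes with a BN1-only (red) or control-only (grey) region between genes within 50 kb (y axis), for genes grouped by which list had a peak at their ends (x axis). Genes with only a BN1 peak at their ends had a BN1-only region in 34.5%, and genes with only a control peak in 9.73%. Gene ends and regions were sorted by the same lists, so the contrast follows in part from the rule.

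The gene with the greatest length of BN1-only regions around it was Cxcr4, which encodes the receptor for Cxcl12 that holds blood progenitors and neutrophils in the marrow. Its window held 13 regions of 13679 bp in all. Downstream, 7 regions covered 4059 bp between 1645 and 38405 bp from the gene and included the narrow one with a fold of 34.8. Upstream, 6 regions covered 9620 bp between 8650 and 20497 bp, with the longest at 4119 bp (fold 16.5), 2432 bp (fold 17.4) and 2106 bp (fold 15.5). All peaks counted, the list labelled BN1 had 15 peaks over 19414 bp in the window, and the list labelled control had 1 peak of 715 bp with a fold of 4.05. Both lists thus had acetylation at the gene end, and the flanks were called in the list labelled BN1 alone.

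Lbr had 6 regions of 10473 bp, all upstream of its start at 8846 to 35052 bp. They included, beside the strongest region of all, 1 of 2194 bp with a fold of 19.95 and 1 of 2933 bp with a fold of 12.4. The same 6 regions lay within 50 kb of Enah, an actin regulator, and 5 of them within 50 kb of Dnah14, a dynein heavy chain. Only Lbr of these 3 genes had an acetylated end in either list, and it had one in both. Rbm38 had 8 regions of 10882 bp, all downstream at 2000 to 37357 bp, with folds of 14.2 over 4953 bp and 14.5 over 2635 bp. The end of Rbm38 was acetylated in the list labelled BN1 only. Of these 8, 6 also lay near Ctcfl, a testis paralogue of the insulator protein CTCF, whose ends had no peak in either list.

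The remaining genes in the top 10 had between 7996 and 9204 bp. Slfn1 had 9 regions of 9204 bp, and its end was acetylated in the list labelled BN1 only. Chst3, a chondroitin sulfotransferase, had 5 regions of 8960 bp, and 3 of these, of 8190 bp, were shared with Spock2, which encodes a proteoglycan. Chst3 also had 2 control-only regions of 1380 bp. Neither gene had an acetylated end in either list. Dennd4a had 2 regions of 8639 bp beside 1 control-only region of 298 bp, its window held 12 control peaks of 9633 bp, and its longest region lay 457 bp from a control peak. Litaf, which encodes a lysosomal membrane protein, had 7 regions of 7996 bp beside 3 control-only regions of 908 bp.

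**Figure D4:**
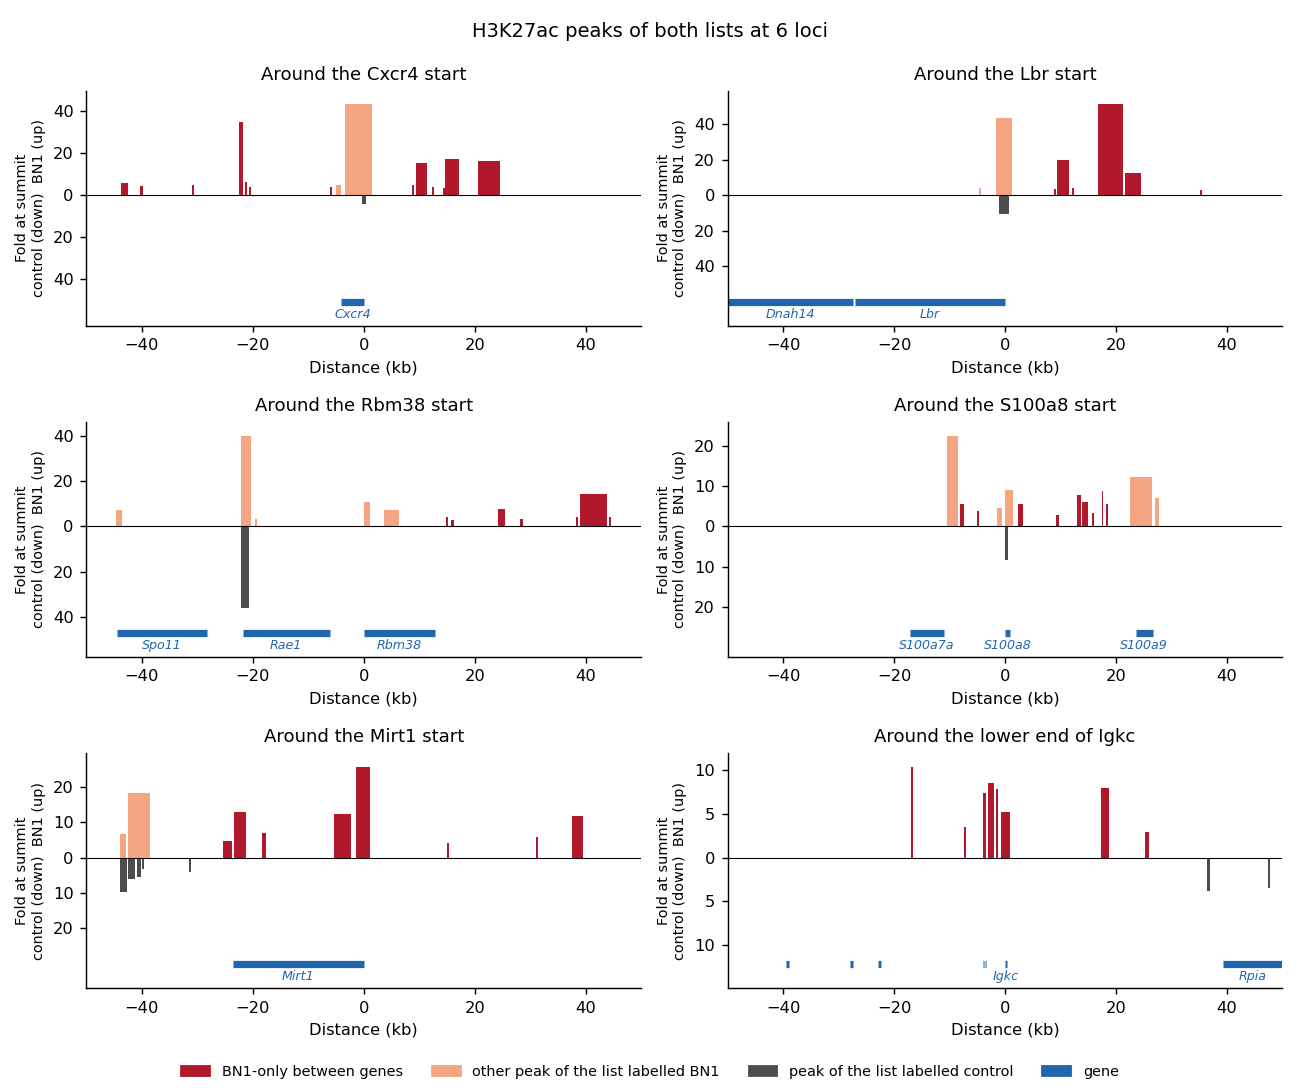
Peaks of both lists within 50 kb of the start of 5 genes and of the lower end of Igkc; the x axis is distance in kb along increasing genome position, and bar height is fold enrichment at the summit, upward for the list labelled BN1 (BN1-only regions between genes in dark red, other peaks in light red) and downward for the list labelled control (grey). Blue bars are genes. Around Cxcr4 13 BN1-only regions flank the gene while the list labelled control has 1 peak, and around Lbr the tallest bar is at 51.2.

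Genes of named cell types were followed through 16 lists with 309 genes, all of which were found. These lists were drawn up with earlier results of these data known. In sorted bulk cells, a larger share of a cell type and more acetylation within each cell cannot be told apart.

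Neutrophil genes and chemokine and cytokine receptor genes had the highest shares in the 50 kb window, 72% and 70%. With a 100 kb window the receptors had 90% and the neutrophil genes 72%, beside 19.9% of all genes. Counting the nearest gene alone, both had 60%, beside 5.72% of all genes. Of 25 genes for granule proteins, neutrophil surface receptors and granulocyte transcription factors, 18 (72%) had a BN1-only region between genes, beside 12.6% of all genes. The same 25 genes had a control-only region in 7 cases (28%), beside 21.3% of all genes. The summed length of BN1-only regions had a median of 1023 bp over the list, against a median of 0 bp for control-only regions, and 17 of the genes had more BN1-only than control-only length while 5 had more control-only length. Over all 21883 genes these counts were 2138 and 4219. End regions were acetylated in the list labelled BN1 for 18 of the 25 genes and in the list labelled control for 4, beside 41.6% and 44.98% of all genes. Together the 18 genes had 52 different regions of 31069 bp.

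S100a8 and S100a9 encode the subunits of calprotectin, an abundant protein of the neutrophil cytosol, and lie next to each other. They shared 9 regions of 4827 bp, with widths of 298 to 1031 bp and folds of 2.92 to 8.87. Their windows held 14 peaks of 13985 bp in the list labelled BN1 and 1 peak of 508 bp in the list labelled control. Fcnb, which encodes a ficolin of neutrophil granules, had 8 regions of 4257 bp with folds up to 7.16 and no control peak within 50 kb. Ly6g, the neutrophil surface marker, had 4 regions of 3075 bp upstream and no control peak. Gfi1, a repressor needed to make neutrophils, had 5 regions of 2370 bp and no control peak. Retnlg and Cd177, also without a control peak in the window, had 3 regions of 1130 bp and 2 of 1023 bp.

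Among the other granule genes, Ngp (neutrophilic granule protein) had 2 regions of 2718 bp with folds up to 11.5. Camp, the cathelicidin gene, had 3 of 2067 bp. Cxcr2, the receptor that draws neutrophils to chemokines, had 4 regions of 2315 bp. Padi4, which citrullinates histones in neutrophils, had 1 region of 1761 bp. Cebpe, a transcription factor of late granulocytes, had 2 regions of 722 bp. All peaks counted, its window held 5 of 4559 bp in the list labelled BN1 and 4 of 8457 bp in the list labelled control. The windows of Ngp and Cxcr2 had the greater length in the list labelled BN1. Lcn2, Mpo and Pglyrp1 had 1 region each, of 507, 238 and 224 bp. The 7 genes of the list without a region were Elane, Prtn3, Ctsg, Mmp8, Mmp9, Ms4a3 and Chil3, and of these Mmp9 had 5 control-only regions of 3824 bp and Mmp8 had 2 of 1124 bp.

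Monocyte and macrophage genes leaned to control-only regions, though both of their shares were above those of all genes. Of 22 genes, 8 (36.4%) had a BN1-only region, beside 12.6% of all genes. A control-only region was found for 17 (77.3%), beside 21.3% of all genes. The medians were 0 bp of BN1-only and 984.5 bp of control-only length. Ccr2, the receptor of inflammatory monocytes, had 1 BN1-only region of 349 bp and 13 control-only regions of 8672 bp. Cd14, a lipopolysaccharide co-receptor, had no BN1-only region and 9 control-only regions of 7070 bp. Irf8, a factor of monocytes and dendritic cells, had 3 BN1-only regions of 1418 bp and 6 control-only regions of 6185 bp. Spi1 (the gene of PU.1, a myeloid transcription factor) had 2 BN1-only regions of 1683 bp and 1 control-only region of 232 bp.

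Chemokine and cytokine receptor genes were flanked by regions of either list. These genes are not separate from the other lists. Cxcr2 and Csf3r are also neutrophil genes, Ccr2 and Csf1r monocyte genes, Il7r a B lymphoid gene and Ccr3 a mast cell list gene. A BN1-only region was found for 14 of 20 (70%) and a control-only region for 15 of 20 (75%). Neighbouring receptor genes can share regions, as Cxcr1 and Cxcr2 do, so these are not independent counts. Over all genes these shares were 12.6% and 21.3%. More BN1-only than control-only length was found for 8 of them and the reverse for 11, with medians of 646.5 bp of BN1-only and 1630 bp of control-only length. Behind Cxcr4 came Ccr7, a receptor that guides lymphocytes and dendritic cells to lymph nodes, with 8 regions of 5524 bp, and Il1r2, a decoy receptor for interleukin 1, with 4 regions of 2679 bp. Each of them also had 1 control-only region, of 362 bp at Ccr7 and 279 bp at Il1r2. Cxcr1 shared its 4 regions of 2315 bp with Cxcr2 and had 3 control-only regions of 3396 bp, and Cxcr2 had 1 of 1229 bp. Ccr3 had 1 BN1-only region of 349 bp and 10 control-only regions of 6410 bp.

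Of 24 B lymphoid genes, 8 (33.3%) had a BN1-only region and 5 (20.8%) a control-only one, beside 12.6% and 21.3% of all genes. End regions were acetylated in the list labelled BN1 for 18 of them and in the list labelled control for 6, beside the 41.6% and 44.98% of all genes. Together the 8 genes had 30 different regions of 20259 bp. Bach2, a transcription factor of B cells, had 6 regions of 4774 bp lying 4976 to 18470 bp upstream, with folds up to 11.3. Its whole window held 14 peaks of 12611 bp in the list labelled BN1 and 8 of 10219 bp in the list labelled control. Cd22, an inhibitory co-receptor of B cells, had 7 regions of 4240 bp and 1 control peak of 671 bp in its window. Blnk, an adaptor of B cell receptor signalling, had 6 regions of 3224 bp. Its whole window held 12 BN1 peaks of 10205 bp and 5 control peaks of 3229 bp. Ebf1, an early B cell factor, had 4 regions of 3058 bp upstream, the farthest at 41926 bp, and no control peak in its window. Foxo1 had 2 regions of 2426 bp, and Pax5, which fixes B cell identity, had 1 region of 831 bp 1039 bp upstream. Their windows also held control peaks, 2 of 2246 bp at Foxo1 and 2 of 1289 bp at Pax5.

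Dendritic cell genes had a BN1-only region in 6 of 18 cases (33.3%) and a control-only region in 6 of 18. The shares over all genes, for this list and those below in this paragraph, were 12.6% and 21.3%. The greatest lengths were at the neighbouring MHC class II genes H2-Eb1, with 10 regions of 5782 bp, and H2-Aa and H2-Ab1, which shared the same 10 regions of 5166 bp. They make up 3 of the 6 genes and lie at 1 locus. These genes present antigen in dendritic cells and B cells alike. Cd74, the invariant chain of MHC class II, had no BN1-only region and 14 control-only regions of 8292 bp, and Xcr1 had none and 3 control-only regions of 1041 bp. Of the mast cell, basophil and eosinophil list, 3 of 18 genes (16.7%) had a BN1-only region and 4 (22.2%) a control-only one. Both are near the shares of all genes. Prg2, the eosinophil major basic protein gene, had 3 regions of 5693 bp with folds up to 14.8 and no control peak in its window, while Mitf, a factor of mast cells, had no peak in the list labelled BN1 and 13 peaks of 20016 bp in the list labelled control, none of them control-only between genes. In the T and NK list, 2 of 24 genes (8.33%) had a BN1-only region and 10 (41.7%) a control-only one.

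Stem and multipotent progenitor genes had a BN1-only region in 6 of 22 cases (27.3%) and a control-only one in 7 (31.8%). The shares over all genes, for these and the self-renewal genes below, were 12.6% and 21.3%. Myb, a transcription factor of progenitors, had 3 regions of 2731 bp, 1 of them 25275 bp upstream, and no control peak in its window. Erg encodes an ETS factor that stem cells need, and it had 1 region of 1303 bp 9347 bp downstream with a fold of 8.61. Its whole window held 16 BN1 peaks of 15865 bp and no control peak, so most of the acetylation there lay inside the gene. Kit, Cd34, Meis1 and Runx1 had no BN1-only region between genes, and Runx1 had 6 control-only regions of 5636 bp. The ends of Cd34 and Meis1 were acetylated in the list labelled control only, those of Runx1 in both and those of Kit in neither. Of 20 self-renewal genes outside the Hox clusters, 5 (25%) had a BN1-only region and 8 (40%) a control-only one. Sox4 had 2 regions of 1838 bp and no control peak, and Myc had none.

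In the remaining lists the share of genes with a BN1-only region was between 0% and 25%, beside 12.6% of all genes. A control-only region was found for 21.3% of all genes. Shares near these are not read as a result. Erythroid genes had a BN1-only region in 5 of 24 cases (20.8%) and a control-only one in 5, with Car2, a carbonic anhydrase gene, at 3 regions of 892 bp. Megakaryocyte genes had a BN1-only region in 3 of 18 cases (16.7%) and a control-only one in 5 (27.8%). Stroma and endothelium genes had a BN1-only region in 3 of 16 cases (18.8%) and a control-only one in 3. Fusion partner, BAF and BET genes had a BN1-only region in 2 of 16 cases (12.5%) and a control-only one in 4 (25%), and Brd9 and Nutm1 had no BN1-only one. Housekeeping genes had a BN1-only region in 4 of 16 cases (25%) and a control-only one in 5 (31.3%). None of the 21 Hoxa and Hoxb genes and none of the 18 genes of other tissues had a BN1-only region between genes, while 1 and 3 of them had a control-only one. End regions of the Hoxa and Hoxb genes were acetylated in the list labelled BN1 for 1 gene and in the list labelled control for 9. Cebpa, a granulocyte factor outside these lists, also had none.

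**Figure D5:**
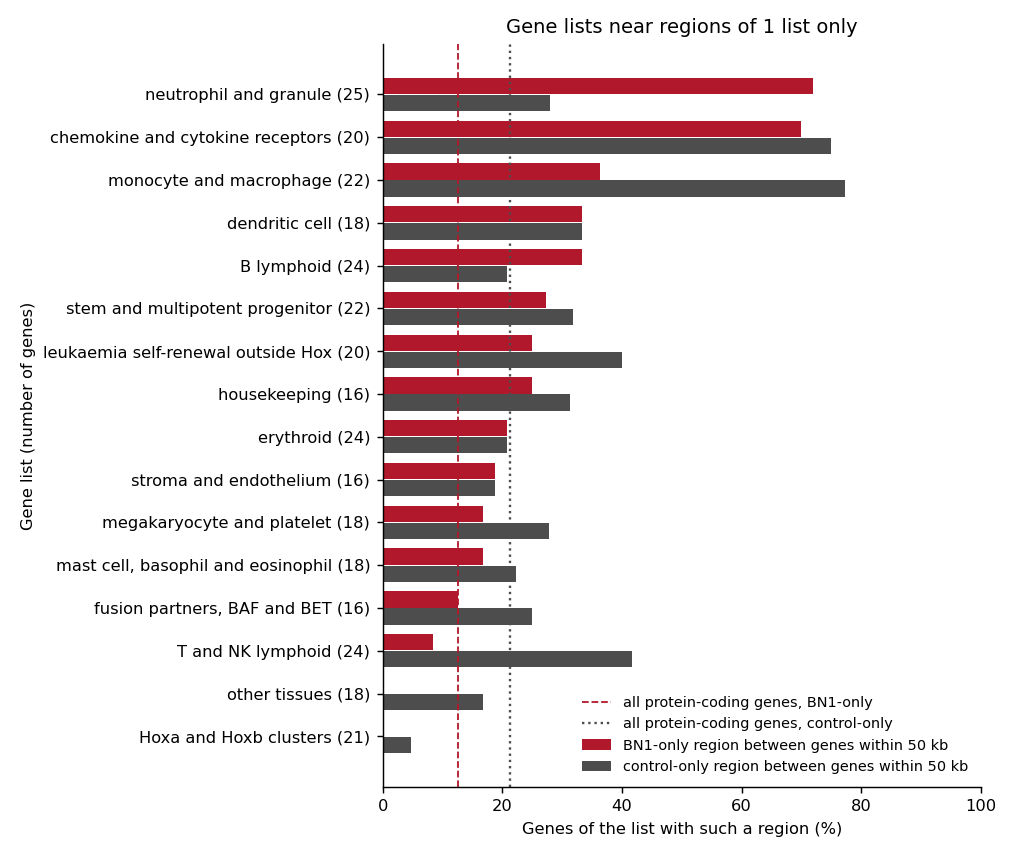
Percent of the genes of each of 16 lists (y axis, with the number of genes) that had a BN1-only (red bars) or control-only (grey bars) region between genes within 50 kb (x axis); the dashed red and dotted grey lines give the shares over all protein-coding genes, 12.6% and 21.3%. Neutrophil genes reach 72% against 28%, and monocyte and macrophage genes 36.4% against 77.3%.

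Regions between protein-coding genes can still lie on other genes. Of the 2833 BN1-only regions, 674 overlapped a noncoding RNA gene, or 23.8% (95% interval 22.2 to 25.4), against 1248 control-only regions, or 23.1% (22.0 to 24.3), and 501 regions of both lists, or 33.8% (31.4 to 36.3). These intervals, too, do not compare the groups. Nearly all of the 674, namely 663, overlapped an lncRNA gene. The 454 lncRNA genes overlapped included 430 known only by a predicted name.

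Mirt1, an lncRNA gene on chromosome 19, had the greatest overlap. Its 4 regions were 2255, 588, 3081 and 2627 bp wide, with folds of 12.9, 6.87, 12.3 and 25.6, and they overlapped the gene by 7406 bp. The strongest covered its promoter window, shown above, and the list labelled control had no peak on the gene. Slc6a19os had 2209 bp in 1 region with a fold of 12.5 and no control peak. Bloodlinc, an lncRNA of red cell precursors beside Slc4a1, had 2 regions overlapping it by 826 bp and no control peak. Platr7 had 1151 bp in 1 region, LOC115486505 had 1727 bp in 2 regions and Ino80dos had 1699 bp in 4 regions. Pvt1, the lncRNA gene next to Myc, had 2 regions of 1307 bp, but all its peaks came to 2 in the list labelled BN1 and to 17 of 16889 bp in the list labelled control. Firre on chromosome X had 6 regions of 1905 bp, within 9 peaks of the list labelled BN1 and 7 of the list labelled control.

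A region of 1696 bp with a fold of 19.7 lay near the start of Xist, the RNA that silences an X chromosome in female cells, and within the antisense gene Tsix. The nearest control peak was 9598 bp away, and Xist itself had none. No peak of either list lay within 50 kb of the Y-linked genes Kdm5d, Ddx3y, Uty and Eif2s3y. The labels give no sex.

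Gene segments of the antigen receptors are not protein-coding genes in the annotation, so regions on them counted as between genes. These loci were looked at after their values had been seen. The kappa light chain locus Igk had 13 BN1-only regions of 7034 bp and the lambda locus Igl had 9 of 6125 bp, and the list labelled control had no peak in either. At Igk, regions at chr6:70722403-70722978, chr6:70723425-70724480 and chr6:70725756-70727261 (mm10) covered the joining segments Igkj1 and Igkj2, the segments Igkj4 and Igkj5, and the constant segment Igkc. Another of 285 bp with a fold of 7.76 lay between Igkj5 and Igkc.

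The heavy chain locus Igh had 8 BN1-only regions of 8631 bp and 19 control-only regions of 9651 bp. The one at chr12:113424051-113427045, between Ighm and Ighj4, was 2995 bp wide with a fold of 19.8 and the highest −log10 q of all 2833 regions, 345.58. Its neighbour at chr12:113427622-113429785 was 2164 bp wide with a fold of 13.7 and covered the joining segments Ighj1 to Ighj4. Another 2 lay between Ighg2b and Ighg1. The other 4, with folds of 5.54 to 8.13, lay among the variable segments, on Ighv8-4, Ighv8-10 and Ighv1-74 and near Ighv1-48. All 19 control-only regions, with folds up to 12.1, also lay among the variable segments, so regions of either list were interleaved there. T cell receptor loci had fewer: Tcrb had 4 BN1-only regions of 2037 bp and 1 control-only region of 1708 bp, Tcrg had 2 BN1-only regions of 1375 bp, Tcra had none and 1 control-only region of 689 bp, and Tcrd had neither.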

How the data were processed

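H3K27ac peak lists of 1 library labelled BN1 and 1 labelled control were used as deposited, without a header, in mm10 coordinates. The submitters' processing notes name MACS3 3.0.1, Bowtie2 2.5.4, deepTools 3.5.1 and Picard 3.2.0 without saying what each did. Whether input was subtracted, libraries were pooled or which threshold applied is not given in the sources used here. For every peak the authors deposited a fold enrichment (a linear ratio), a −log10 p-value, a −log10 q and a score. In 100% of deposited peaks the score was 10 times the −log10 q to within 1 unit, so neither it nor the −log10 p was analysed. The lists hold no read counts, so depth is unknown and limits which weak regions could be called.

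The list labelled BN1 held 19148 deposited peaks, of which 19140 lay on placed chromosomes; the one labelled control held 28343, of which 28315 did. Peaks were merged where they touched or overlapped (bedtools 2.31.1, checked against a second implementation) and compared with the 21883 protein-coding genes of the RefSeq table of GRCm38.p6, the assembly of mm10. Strand was taken from the RefSeq promoter windows where a gene has one. Intervals are exact binomial (Clopper-Pearson) at 95%. They treat regions as independent counts, although many regions lie beside each other. The rule that named genes took the 10 with the most bp of BN1-only regions within 50 kb, up to 5 of each list, the nearest named genes of the 10 longest and 10 strongest regions, 10 noncoding genes by overlap, miRNA genes within 5 kb, the 5 largest groups and a short fixed set; any other gene was named after its values were seen. The regions, lists and comparisons were chosen with earlier results of these data known. The region rule was tested on simulated regions. Python 3.11.15, numpy 2.4.6, pandas 2.3.3, scipy 1.17.1 and matplotlib 3.10.9 were used.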

Additional observations from a re-analysis of the deposited data

How the results depend on the processing

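No paired analysis was possible because each group had 1 ChIP library, and for the same reason no replicate could be left out. The absence of a control peak depends on the depth of the library labelled control, which is unknown, and the causes of the changes below were not tested. With peaks of −log10 q of at least 5, the median width was 580 bp, the median fold 5.92 and the number of groups with at least 3 regions 139. At −log10 q of at least 10 in both lists there were 1065 BN1-only regions between genes of 1212452 bp, with a median width of 924 bp, a median fold of 8.07, a share beyond 50 kb of 27.4%, 1297 genes, 41 listed genes, 47 groups and 310 regions on noncoding RNA genes, and 2288 control-only regions. Cutting the list labelled control to the length of the list labelled BN1 gave 3108 BN1-only and 3006 control-only regions. The larger number thus turned to the BN1-only ones in this setting. Merging peaks within 500 bp gave a median width of 512 bp, a median fold of 5.13 and 118 groups. Without gene extension the median distance was 15510 bp and the share beyond 50 kb 23.5%. An extension of 5000 bp gave 25716.5 bp, 31.1% and 1826 genes, and removing noncoding RNA genes gave 15926 bp and 22.8%. A window of 10 kb gave 863 genes and 47 listed genes, a window of 100 kb gave 4350 genes and the nearest gene alone 1251. The next settings were chosen after seeing the data. The −log10 q minimum of 10 in the list labelled BN1 only gave 862 regions of 974452 bp, a median width of 924.5 bp, a median fold of 7.98, a median distance of 20272 bp, a share of 28.8%, 1033 genes, 37 listed genes, 37 groups and 243 regions on noncoding RNA genes. The top 10000 peaks of each list gave 977 regions of 1230653 bp, a median width of 1036 bp, a median fold of 8.87, 1318 genes, 39 listed genes, 36 groups and 284 regions on noncoding RNA genes, and 1181 control-only regions. Of the 16 gene lists, 14 moved by over 1.5 times under at least 1 of 13 settings, and the Hox and other tissue lists stayed at 0. The share over all genes moved too. It was 12.6% in the main setting, 3.94% with a window of 10 kb and 19.9% with a window of 100 kb. The list shares that follow move beside it and are not changes of the lists alone. Lowest and highest shares were 36% and 76% for neutrophil genes, 30% and 90% for receptors, 20.8% and 66.7% for B lymphoid, 22.2% and 61.1% for dendritic, 9.09% and 54.5% for monocyte, 9.09% and 45.5% for stem, 5% and 40% for self-renewal, 6.25% and 37.5% for housekeeping, 4.17% and 33.3% for erythroid, and 4.17% and 20.8% for T and NK genes. They were 0% and 44.4% for megakaryocyte, 0% and 37.5% for fusion partner, 0% and 25% for stroma, and 0% and 22.2% for mast cell genes. At −log10 q of at least 5, erythroid genes had 8.33%, below the 9.71% of all genes.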
